A study of Mus musculus with 8 samples.

Results

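The platelet-derived growth factor (PDGF) family was examined in SV-LECs, an SV40-immortalized line derived from lymphatic endothelium of mouse mesenteric adventitia. Its members were the ligand genes Pdgfa, Pdgfb, Pdgfc and Pdgfd, the receptor genes Pdgfra and Pdgfrb, and the receptor-like gene Pdgfrl. They were taken by symbol, and each matched 1 row, so that they made up 7 of the 55471 genes in the count table. A control group of SV-LECs received no treatment and the other TGFβ1 at 10 ng/ml for 72 h, with 4 libraries per group and 8 in all. Every library came from the same line, and the study describes the 4 samples of a group as technical replicates, so that errors and p-values cover the spread between such samples and not that between independent experiments.

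PDGFs are disulphide-linked dimers that bind receptor tyrosine kinases of class III. PDGF-A and PDGF-B are trimmed inside the cell by proprotein convertases, whereas PDGF-C and PDGF-D leave the cell in a latent form with a CUB domain that proteases must remove. PDGFRα is bound by the A, B and C chains and PDGFRβ mainly by the B and D chains. In blood vessels, PDGF-B from the endothelium recruits pericytes and smooth muscle cells that carry PDGFRβ, and collecting lymphatic vessels are also covered by smooth muscle, while PDGFRα marks fibroblasts and mesenchymal progenitors. PDGFRL resembles the outer part of a PDGF receptor and has no kinase domain, and its function is poorly known.

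Total counts were between 18952504 and 26386941 per library. Values are given as CPM, read counts divided by the normalized library size, and 3 counts corresponded to 0.113 to 0.162 CPM, which covers counting error only. Groups were compared with edgeR's likelihood ratio test over 13818 genes with sufficient counts, and genes were called significant at a false discovery rate (FDR, Benjamini-Hochberg) below 0.05. The defining markers of the labelled cell type were largely missing. Of 12 endothelial markers only Tek, Kdr, Esam and Egfl7 had enough counts to be tested, Tie1 and Erg had no count in any library, and Pecam1 and Cdh5 were at 0.168 CPM or less on average in both groups. Of 8 lymphatic markers only Flt4 (21.6 ± 1.23 CPM untreated, SD, n = 4) and Pdpn (342 ± 19.5 CPM) were tested, Ccl21a had no count, and Prox1 had none in the untreated libraries. The summed lymphatic markers, nearly all of it Pdpn, lay at 344 to 382 CPM in untreated and 337 to 348 CPM in treated libraries. The summed endothelial markers lay at 19.5 to 22.2 and 30.0 to 33.3 CPM. Most of that difference was Kdr, with means of 11.6 CPM untreated and 22.1 CPM treated. Esam rose from 2.85 to 3.77 CPM, Egfl7 fell with a log2 fold change of -0.29, and Tek was not significant.

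TGFβ1 changed the PDGF family in both directions. Pdgfra fell 2.77-fold, while Pdgfrb and Pdgfrl rose, and among the ligands Pdgfc, Pdgfb and Pdgfa rose while Pdgfd fell. All 7 genes passed the filter on low counts and the test, 5 higher and 2 lower, and in none of them did the libraries of the groups overlap. This is to be read against the background, since 75.6% of all genes tested were significant (37.6% higher and 38.0% lower), and the groups did not overlap in 69.8%. A significant change of at least 1 on the log2 scale was less common, at 17.5% of the genes tested, and 3 members were in this class, Pdgfra among the 6.56% that fell and Pdgfb and Pdgfc among the 10.9% that rose. Pdgfb was in it only narrowly: its log2 fold change was 0.96 with libraries scaled by total counts, 0.999 without the filter on low counts, 0.997 with a larger prior count and 0.98 without TGFβ1 replicate 4, which leaves 2 members. The median log2 fold change was 0.63 over the 7 members and -0.01 over all genes tested.

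**Figure D1:**
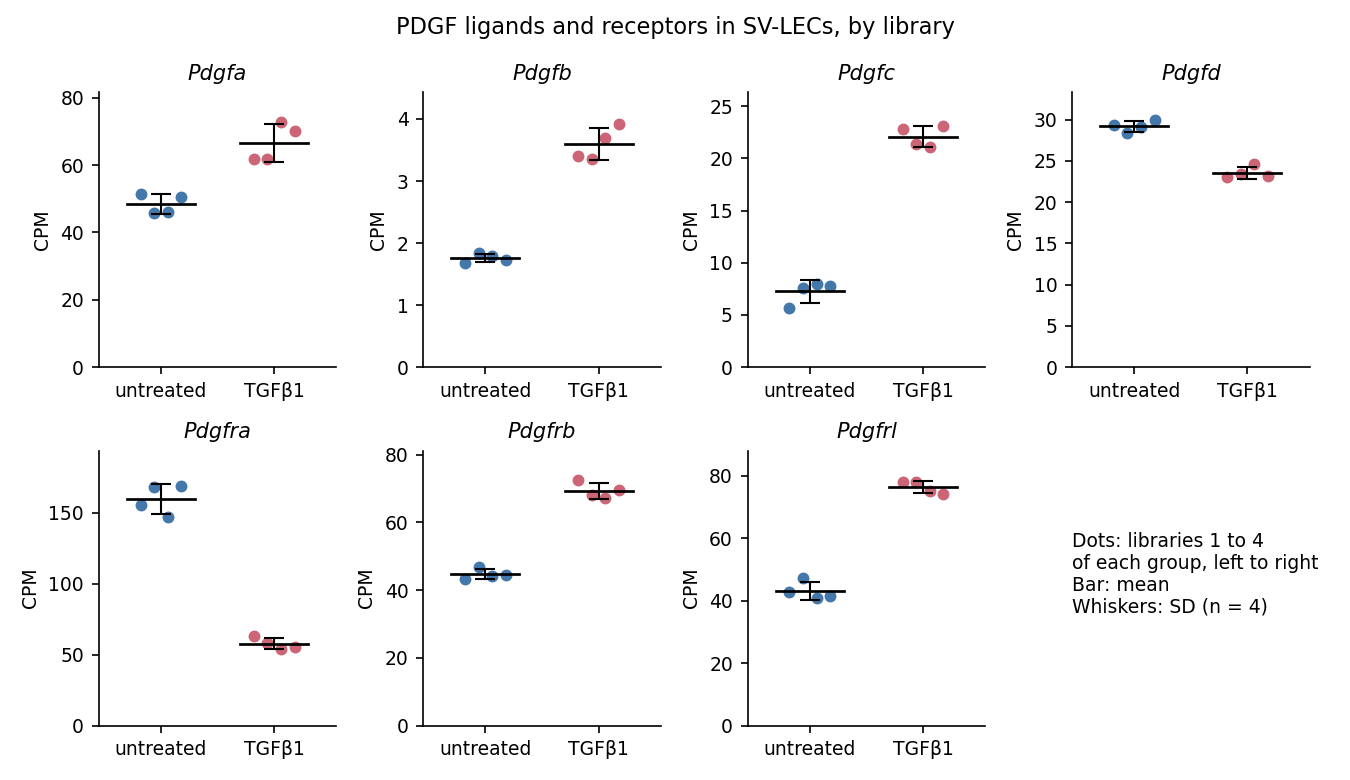
Level of each PDGF gene (CPM, linear axis from 0) in the 4 untreated (blue) and 4 TGFβ1-treated (red) libraries, with the mean and SD of each group. In every panel the groups are separated, with Pdgfra dropping from a mean of 160 to 57.8 CPM and Pdgfc rising from 7.25 to 22.1 CPM.

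Pdgfra, the receptor bound by the A, B and C chains (chromosome 5, 75152292 to 75198215 on GRCm38, plus strand), was at 156, 168, 147 and 169 CPM in the 4 untreated libraries and at 63.1, 58.1, 54.4 and 55.4 CPM in the 4 TGFβ1-treated libraries. The highest treated library was thus far below the lowest untreated one. The log2 fold change was -1.47 with a standard error of 0.060 (95% interval -1.59 to -1.35, edgeR FDR = 6.73e-127), and 3.16% of the genes tested had a lower one. Among fibroblast markers, which include genes that often accompany Pdgfra in tissue, Dcn (decorin) fell with a log2 fold change of -1.91 and Thy1 with -1.07, whereas Col1a1 rose by 0.81 and Col1a2 was not significant (-0.08, edgeR FDR = 0.206). Of 10 such markers 8 were tested, 3 higher and 3 lower, near the shares of all genes. Log2 fold changes of the tested markers ran from -1.91 to 1.37. The summed level of these markers overlapped between the groups, at 10832 to 13852 CPM untreated and 12156 to 13724 CPM treated. Their part in the fall of Pdgfra was not tested. In RNA of whole cultures, fewer cells with Pdgfra and less Pdgfra RNA per cell cannot be told apart.

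Pdgfrb, the receptor of mural cells (chromosome 18, 61045150 to 61085061, plus strand), moved the opposite way. It was at 43.2, 46.8, 44.3 and 44.5 CPM in untreated libraries and at 72.4, 68.0, 67.2 and 69.5 CPM after TGFβ1. Every treated library lay above every untreated one, by a gap larger than the spread within either group. Its log2 fold change was 0.63, with a standard error of 0.050 and an edgeR FDR of 8.55e-36. Markers of pericytes and smooth muscle moved with it: of 12 such genes 9 were tested and all 9 were significantly higher, against 37.6% of all genes tested, with a median log2 fold change of 1.80, and the summed level was 986 to 1044 CPM in untreated and 2935 to 3099 CPM in treated libraries. Notch3, a receptor of mural cells, rose from 41.4 ± 2.93 to 286 ± 13.2 CPM, and Des (desmin) rose from 1.69 ± 0.258 to 7.15 ± 0.784 CPM (SD, n = 4). The pericyte markers Kcnj8 and Abcc9 were at 0.019 CPM or less on average in each group and Rgs5 at 0.210 CPM after TGFβ1. The part of these genes in the rise of Pdgfrb was not tested.

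Pdgfrl (chromosome 8, 40926212 to 40990785, plus strand), the receptor-like gene, was at 42.9, 47.4, 41.0 and 41.5 CPM in untreated and at 77.9, 77.9, 75.1 and 74.2 CPM in treated libraries. The groups were well apart, and the treated libraries differed little among themselves. Its log2 fold change was 0.82, with a standard error of 0.056 and an edgeR FDR of 8.43e-48.

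Pdgfc, a ligand secreted in latent form and bound mainly by PDGFRα (chromosome 3, 81036416 to 81214040, plus strand), had the largest rise of the 7 genes. It was at 5.69, 7.55, 7.99 and 7.76 CPM in untreated libraries and at 22.8, 21.3, 21.1 and 23.1 CPM after TGFβ1, a 3.05-fold difference of the means. Untreated library 1 was the lowest of its group, and all treated libraries were far above the group. The log2 fold change was 1.60 with a standard error of 0.095 (95% interval 1.42 to 1.79, edgeR FDR = 3.37e-64), and its size exceeded that of 91.9% of the genes tested.

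Pdgfb, the ligand through which endothelial cells recruit mural cells (chromosome 15, 79995874 to 80014977, minus strand), was the least abundant member per kb of exon. It had 35, 49, 41 and 34 counts in untreated and 63, 69, 75 and 101 counts in treated libraries, or 1.69 to 1.84 CPM and 3.36 to 3.92 CPM. These values were well above the level of 3 counts, and the groups did not overlap. The means differed 2.04-fold, and the log2 fold change was 1.03 (edgeR FDR = 3.36e-12). Its standard error of 0.149 was the largest in the family.

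Pdgfa, the ligand specific to PDGFRα (chromosome 5, 138976014 to 138997370, minus strand), was the most abundant ligand per kb of exon. It was at 51.3, 45.7, 45.9 and 50.6 CPM in untreated and at 61.8, 61.8, 72.9 and 70.0 CPM in treated libraries. The groups did not overlap, and the treated libraries varied with a coefficient of variation of 8.53%. Its log2 fold change was 0.46, with a standard error of 0.068 and an edgeR FDR of 1.85e-11. Pdgfa lies on the opposite strand of 6330403L08Rik, an antisense gene that covers 26.1% of its exon bases. That gene had 84 to 111 counts in untreated and 174 to 288 in treated libraries, and since the use of strand in the counting is not given in the sources used here, reads of the pair may not have been separated. The antisense genes that overlap exons of Pdgfc and Pdgfra had at most 5 counts in any library.

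Pdgfd, the other latent ligand, which acts through PDGFRβ (chromosome 9, 6168584 to 6378850, plus strand), was the only ligand that fell. It was at 29.4, 28.4, 29.1 and 30.0 CPM in untreated and at 23.0, 23.4, 24.6 and 23.2 CPM in treated libraries. The difference was small but the libraries of each group were close together. At -0.31 on the log2 scale (standard error 0.056, edgeR FDR = 6.82e-08), the change was larger in size than that of 41.7% of the genes tested.

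**Figure D2:**
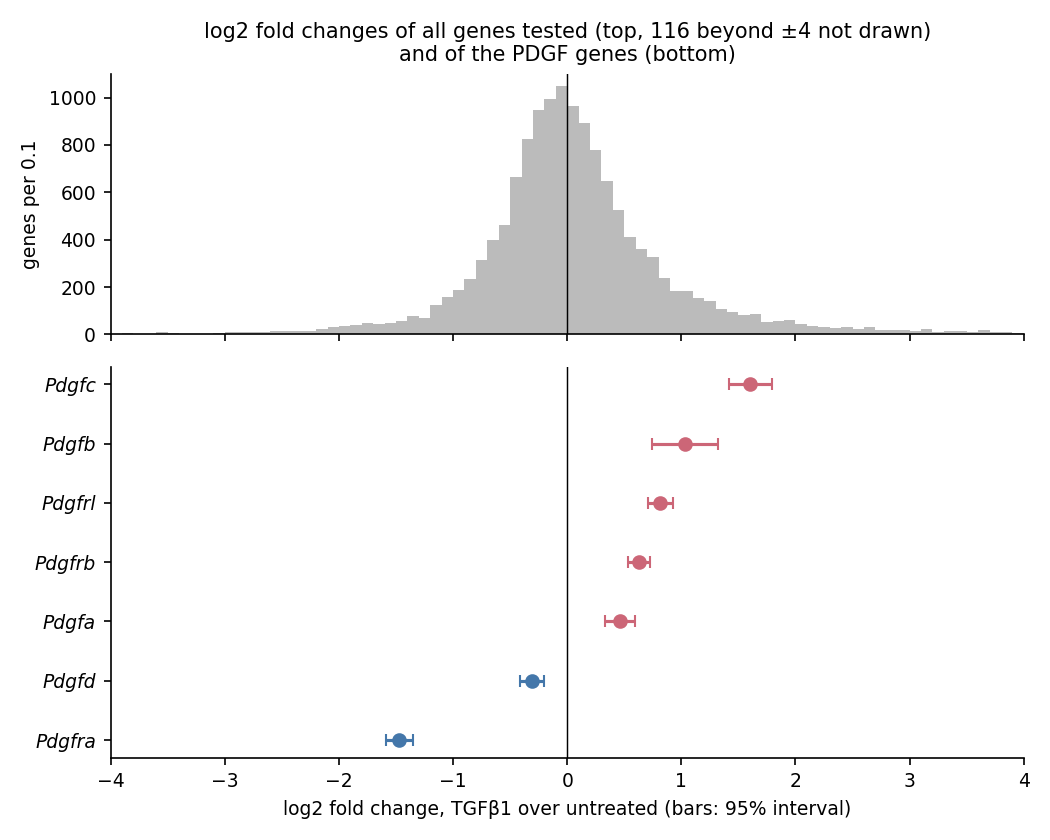
Distribution of log2 fold changes (TGFβ1 over untreated) over 13818 genes in the top panel, with 116 genes beyond the axis not drawn, and the estimates of the 7 PDGF genes with 95% intervals in the bottom panel. Pdgfra at -1.47 and Pdgfc at 1.60 lie in the tails, and Pdgfd at -0.31 lies close to the centre.

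RefSeq promoter windows of GRCm38.p6 were matched for 4 of the 7 members. Windows on the chromosome of Pdgfrb were left out beforehand, so that this gene could not be matched. Those windows are also missing from the windows counted below. The 250 bases before the start site are shown for Pdgfra, with the largest fall, and Pdgfc, with the largest rise. The same bases are shown for Pdgfd, the ligand that fell. They are written 5′ to 3′ on the plus strand, and capitals mark matches on either strand to the motifs searched.
Pdgfra, chr5:75152001-75152250: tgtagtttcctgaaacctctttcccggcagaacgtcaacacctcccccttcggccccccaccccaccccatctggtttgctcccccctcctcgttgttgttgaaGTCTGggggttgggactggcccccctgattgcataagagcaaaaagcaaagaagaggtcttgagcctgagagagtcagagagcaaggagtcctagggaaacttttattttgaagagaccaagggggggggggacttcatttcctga
Pdgfd, chr9:6168236-6168485: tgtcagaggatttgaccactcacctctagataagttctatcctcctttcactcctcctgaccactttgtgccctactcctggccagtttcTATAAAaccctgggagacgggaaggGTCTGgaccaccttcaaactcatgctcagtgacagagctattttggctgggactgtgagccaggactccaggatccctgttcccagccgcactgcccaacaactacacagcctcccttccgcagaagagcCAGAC
Pdgfc, chr3:81036166-81036415: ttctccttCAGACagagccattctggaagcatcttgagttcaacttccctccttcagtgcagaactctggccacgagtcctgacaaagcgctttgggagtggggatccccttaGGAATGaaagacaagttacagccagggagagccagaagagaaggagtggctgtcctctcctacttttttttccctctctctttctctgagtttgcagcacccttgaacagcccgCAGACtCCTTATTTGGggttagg
The motifs were CAGAC (a SMAD-binding element), TGANTCA (AP-1), GGGCGG (SP1), CACCTG (an E-box bound by SNAI and ZEB factors), GGAATG (TEAD), TATAAA (the TATA box) and the SRF CArG box. CAGAC or its complement was in the windows of Pdgfra, Pdgfd and Pdgfc, as in 42.2% of 32851 windows of the same length. The Pdgfc window also held GGAATG, found in 12.6% of all windows, and a CArG box starting 17 bases before the start site, found in 1.47%. The Pdgfd window held TATAAA starting 160 bases before the start site, and 12.4% of all windows held this motif at any position. Of the searched motifs, the windows at both start sites of Pdgfa held only GGGCGG, found in 32.7% of all windows. TGANTCA and CACCTG were in none of the windows of these 4 genes. These are matches of letters and not shown to be bound.

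Ratios between members within a library do not depend on how libraries are scaled. Of 9 ratios computed from 7 genes, all 9 were separated between the groups. Each had p = 0.0286 (exact two-sided permutation test), the smallest that 4 libraries against 4 allow. Benjamini-Hochberg adjustment over the 9 left it at 0.0286. The ratios share genes, so the 9 are not independent results. Single genes were separated in 69.8% of those tested, and the share among ratios of other gene pairs was not computed. The ratio of Pdgfrb to Pdgfra counts was -1.85, -1.85, -1.73 and -1.92 on the log2 scale in untreated libraries and 0.20, 0.23, 0.31 and 0.33 in treated libraries. The ratio was negative in every untreated and positive in every treated library, and it shifted 4.29-fold. Among the ligands the ratio of Pdgfd to Pdgfc shifted most, from 2.02 ± 0.23 to 0.09 ± 0.10 on the log2 scale (SD, n = 4). Pdgfrl rose more than Pdgfrb, with a shift of 0.19 in their log2 ratio, the smallest of the 9. Pdgfc rose more than Pdgfb by 0.60 and more than Pdgfa by 1.16 in the log2 ratio.

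Levels of different genes were compared as CPM per kb of exon. In untreated cells Pdgfra (16.0 ± 1.05 CPM per kb, SD, n = 4), Pdgfa (15.5 ± 0.959) and Pdgfrl (13.8 ± 0.939) led, and neighbours in this order overlapped between libraries. Pdgfd (9.26 ± 0.213), Pdgfrb (8.16 ± 0.275), Pdgfc (1.42 ± 0.208) and Pdgfb (0.423 ± 0.0165) followed, each separated from the next. After TGFβ1 the order was Pdgfrl (24.4 ± 0.616), Pdgfa (21.4 ± 1.82), Pdgfrb (12.6 ± 0.415), Pdgfd (7.47 ± 0.226), Pdgfra (5.76 ± 0.390), Pdgfc (4.34 ± 0.197) and Pdgfb (0.864 ± 0.0629), with no overlap between neighbours. Where the longest transcript was used as length, Pdgfra stood above Pdgfd in treated cells. The order of the leading genes in untreated cells also depended on the length. With the longest transcript Pdgfa came before Pdgfra, and the libraries overlapped. With the longest coding transcript Pdgfrl led (27.9 ± 1.90), without overlap with Pdgfa (23.5 ± 1.45), which came next.

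On this scale Pdgfra made up 64.5% to 67.5% of the summed Pdgfra and Pdgfrb level in untreated libraries and 30.4% to 32.3% after TGFβ1. The summed level of both receptors was lower after TGFβ1, at 17.7 to 19.5 CPM per kb against 22.8 to 25.3, and that of the 4 ligands was higher, at 32.2 to 36.2 against 25.6 to 27.7. Pdgfa made up the largest share of ligand RNA in all 8 libraries, 56.8% to 60.3% untreated and 61.1% to 64.5% treated. The share of Pdgfd was 34.1% to 35.5% and then 20.8% to 23.0%, and that of Pdgfc 4.09% to 6.05% and then 11.5% to 13.8%. Pdgfb was below 3% of ligand RNA in every library.

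**Figure D3:**
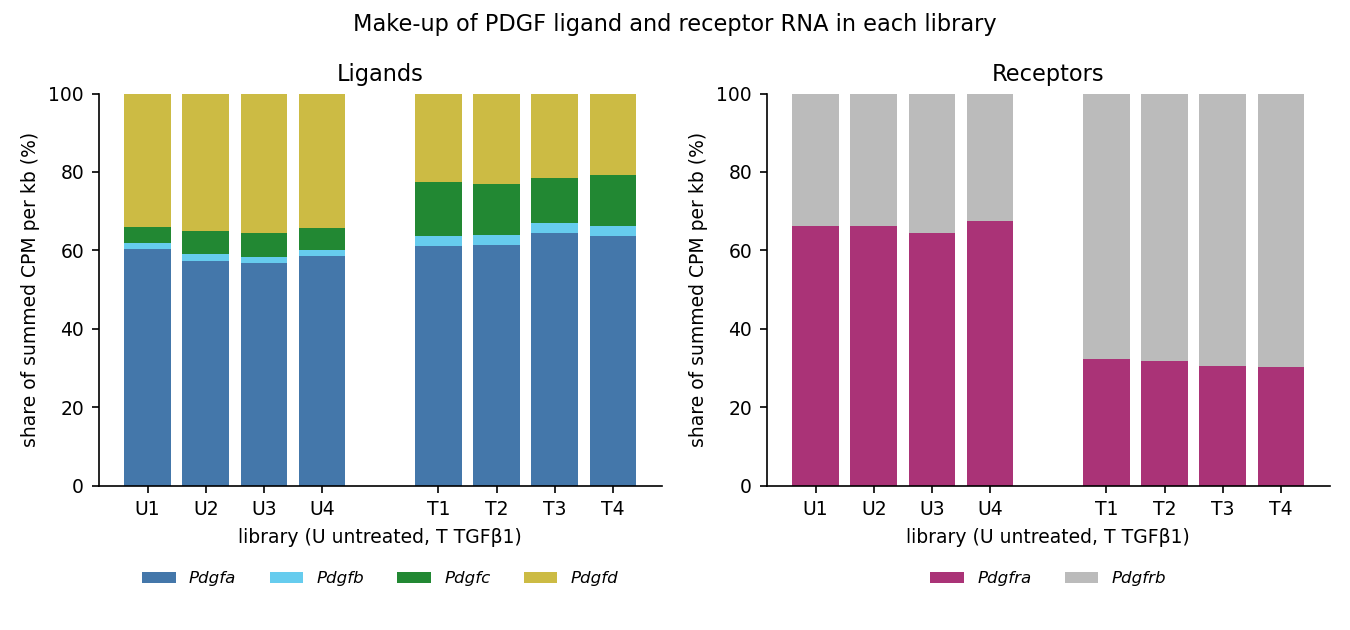
Share of each ligand in the summed level of the 4 ligands (left) and of Pdgfra and Pdgfrb in their sum (right), in percent of CPM per kb of exon, for each untreated (U) and TGFβ1-treated (T) library. The Pdgfra part shrinks from 64.5% or more to 32.3% or less, and the Pdgfc part of the ligands grows as the Pdgfd part shrinks.

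Genes that process or bind PDGFs changed in both directions. All 7 proteases of the processing list were significant, 5 higher and 2 lower, where 75.6% of all genes were, and the median log2 fold change was 0.34. St14 (matriptase), which can activate PDGF-D, rose from 2.91 ± 0.541 to 43.1 ± 2.13 CPM, and Plat (tissue plasminogen activator), which activates PDGF-C, rose from 43.5 ± 2.76 to 108 ± 8.83 CPM (SD, n = 4). Plau (urokinase), which activates PDGF-D, had a log2 fold change of 0.30. Of the convertases, Furin rose by 0.34 and Pcsk7 by 0.47, while Pcsk6 and Pcsk5 fell, with log2 fold changes of -0.67 and -0.68. Among inhibitors of the plasminogen activators, Serpine2 rose by 3.20 on the log2 scale, from 28.9 ± 0.638 to 265 ± 16.0 CPM. Serpinb2 had few counts, 26 to 37 in untreated and 7 to 9 in treated libraries, and fell with a log2 fold change of -1.95.

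Of 6 genes for PDGF-binding proteins and co-receptors, 4 rose and 2 fell, against 37.6% and 38.0% of all genes, and the median log2 fold change was 1.29. Nrp1 (neuropilin-1), a co-receptor of several growth factors, rose from 29.8 ± 2.08 to 238 ± 11.4 CPM. Thbs1, a matrix protein that binds PDGF, rose by 2.39 on the log2 scale, and Lrp1, an endocytic receptor that associates with PDGFRβ, by 1.74. Cspg4 (NG2), which binds PDGF-AA and marks pericytes, rose by 0.85. Sparc, which binds PDGF-B, and Cav1, the main protein of caveolae, fell, with log2 fold changes of -0.26 and -0.87.

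The signalling proteins downstream of the receptors changed in both directions about as often as all genes tested. Of 29 genes, 11 were higher, 11 lower and 7 not significant, shares close to the 37.6% higher and 38.0% lower of all genes, with a median log2 fold change of -0.05 and extremes of -0.68 and 0.67, which belonged to Mapk3 (ERK1) and Hras. With libraries scaled by total counts, 6 were higher and 14 lower, where 4627 of all 13818 genes tested were higher and 5899 lower. Pik3r1, a regulatory subunit of PI3-kinase, fell with -0.58. The adaptor Grb2 was at 0.04 (edgeR FDR = 0.451). Of 7 negative regulators 3 were higher, 3 lower and 1 not significant, near the shares of all genes, with a median of 0.07. The adaptor Grb10 fell with -1.15, and the phosphatase Ptprj and the ubiquitin ligase Cbl, which act on activated PDGF receptors, rose by 0.62 and 0.64.

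Immediate early genes that PDGF is known to induce in fibroblasts were mostly higher. Of 14 genes, 12 rose, none fell and 2 were not significant, against 37.6% higher and 38.0% lower among all genes, and the median log2 fold change was 0.72. The groups did not overlap in 10 of the 14, a share close to the 69.8% of all genes. Fosl1 (FRA-1) rose from 3.88 ± 0.118 to 44.4 ± 1.28 CPM, Fosb by 1.40 and the chemokine Ccl2 by 1.39 on the log2 scale. Jun and Junb varied widely between libraries and their groups overlapped, with log2 fold changes of 0.30 and 0.84. In order of library number, Junb was at 121, 105, 69.4 and 48.1 CPM untreated and at 110, 100, 193 and 209 CPM treated. Jun and Ier2 also fell in this order without treatment and were higher in the later treated libraries than in the earlier ones. Ier2 and Ier3 were not significant, at 0.21 and -0.02.

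The other receptors of class III had few counts. Kit and Flt3 were at 0.074 CPM or less on average in each group and were not tested, and Csf1r went from 0.278 ± 0.124 to 1.38 ± 0.348 CPM. Of the 4 genes tested in this list, 3 were higher and 1 lower, against 37.6% and 38.0% of all genes, with a median log2 fold change of 0.69. Among the ligands, Csf1 rose from 452 ± 9.20 to 707 ± 16.2 CPM and Kitl, the ligand of Kit, fell from 94.0 ± 5.38 to 41.2 ± 3.69 CPM (SD, n = 4).

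**Figure D4:**
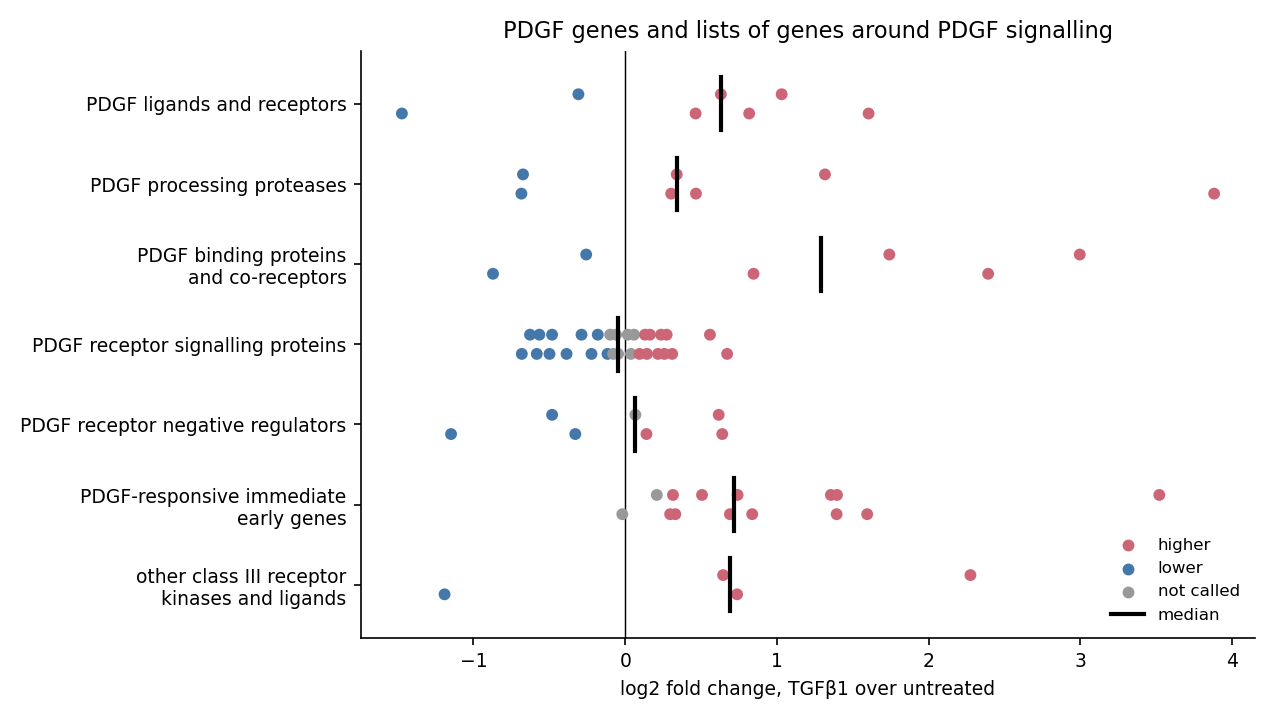
Log2 fold changes (TGFβ1 over untreated) of the 7 PDGF genes and of the tested genes in 6 lists around PDGF signalling, each dot a gene (red higher, blue lower, grey not significant) and each black bar the list's median. The 29 signalling genes stay between -0.68 and 0.67, and Nrp1, Fosl1 and St14 lie at 3.00, 3.52 and 3.88.

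For each member the tested genes with the most similar profile were sought, by Euclidean distance of centred log2 CPM over the 8 libraries among genes of similar level. Rhou (distance 0.176) and Vldlr (0.222) were nearest to Pdgfra, with log2 fold changes of -1.47 and -1.59. Slc30a7 (0.072) and Hivep2 (0.103) were nearest to Pdgfrb, and Zswim6 (0.129) and Arfip2 (0.146) to Pdgfrl. Slc41a2 (0.306) and Gm7361 (0.298) were nearest to Pdgfc, Cdyl (0.147) and Palm (0.165) to Pdgfa, Cep295nl (0.184) and Tmem80 (0.247) to Pdgfb, and Ten1 (0.080) and Acaa2 (0.082) to Pdgfd. The distance to the nearest gene was largest for Pdgfc. With 4 libraries in each of 2 groups, this measure mainly matches the size of the change.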

How the data were processed

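RNA from SV-LECs, untreated or treated with TGFβ1 at 10 ng/ml for 72 h, was sequenced from stranded poly(A) libraries with single-end reads of 75 bases, in 4 libraries per group. The authors mapped reads to GRCm38, and the deposited values are unnormalized counts per gene. The submitters' processing notes name bcl2fastq 2.20.0.422, STAR 2.7.3a and featureCounts 1.5.1, and the annotation release and the use of strand are not given in the sources used here. The 2259 rows without a symbol held 0.0622% of the counts and were kept, since they carry gene identifiers.

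The counts were compared by edgeR 4.0.16 in R 4.3.3 (filterByExpr, TMM, glmFit and glmLRT, the test named by the study), with FDRs over all 13818 genes tested. Standard errors came from the fitted model. Exon lengths and overlaps came from GENCODE M21 on GRCm38. No pair of libraries from the same group was within sampling noise (chi-square per degree of freedom 2.37 to 7.84). The pipeline was tested on simulated data in which far fewer genes changed than here. Scaling under so wide a change was thus not tested. Ratios had 0.5 counts added. The members and the gene lists were chosen with earlier results of these data known. Named genes were the 7 members, genes of the lists with the largest changes or no significant change, the 2 genes nearest to each member, and cell type markers. Pcsk7, Furin, Plau, Cspg4, Sparc, Jun and Junb were named beyond this rule after their values were seen. Plcg1 and Egr1 were also named beyond it, because a library stood apart. Some genes of the lists are not reported here. Alternatives were the quasi-likelihood test, DESeq2 1.42.0, other scalings, filters and prior counts, the replicate block, each library left out, and, chosen after seeing the data, other gene lengths. Markers of leukocytes (1 of 7 tested, Cd68, log2 fold change 1.19) and of platelets (1 of 5 tested, Itga2b, 1.08) were also examined. Ptprc and Pf4 were at 0.012 CPM or less on average.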

Additional observations from a re-analysis of the deposited data

Results flagged for a closer look

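In each group of 4 libraries, a library that stood far from the other 3 was sought by Dixon's ratio of the gap to the range, at the 95% critical value. Of 184 sets of 4 values 9 were singled out, and chance alone singles out about 1 in 20. None was the CPM of a PDGF gene. Among ratios of members, the log2 ratio of Pdgfd to Pdgfc in untreated cells was 2.37 in 1 library and 1.86 to 1.95 in the others, in the library with the lowest Pdgfc. The log2 ratio of Pdgfrl to Pdgfra in untreated cells was -2.02 in 1 library and -1.86 to -1.83 in the others. Neither library approached the treated group. In the lists, single untreated libraries stood apart for Plcg1 (203 CPM, others 188 to 189), Pik3cb (134 CPM, others 137 to 138) and Grb10 (513 CPM, others 538 to 542). Single treated libraries stood apart for Pcsk6 (108 CPM, others 94.2 to 96.2), Cblb (61.2 CPM, others 56.3 to 56.9), Egr1 (136 CPM, others 160 to 163) and Flt3l (5.70 CPM, others 4.38 to 4.60).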

How the results depend on the processing

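Each of the 7 members kept its direction and its significance under all 16 alternatives. The log2 fold change ranged from -1.54 to -1.45 for Pdgfra, 0.56 to 0.65 for Pdgfrb, 0.75 to 0.87 for Pdgfrl, 0.40 to 0.50 for Pdgfa, 0.96 to 1.06 for Pdgfb, 1.50 to 1.65 for Pdgfc and -0.38 to -0.29 for Pdgfd. The largest FDR of each came from edgeR's quasi-likelihood test, at most 3.01e-05, for Pdgfd. Scaling by total counts moved the median of all genes to -0.07, with 4627 of 13818 genes higher and 5899 lower. With this scaling 6 in place of 11 signalling genes were higher and 14 in place of 11 lower. The replicate numbers did not pair the libraries: the correlations of deviations between same-numbered libraries were -0.16, -0.08, -0.04 and -0.27. Between untreated and treated libraries of different number these correlations ran from -0.31 to 0.35. With the replicate block in edgeR, 5075 genes were higher and 5077 lower, 5 members were higher and 2 lower, and Pdgfra had a log2 fold change of -1.47. For the within-library ratios, 0 of 9 passed when paired by number, with p = 0.125 for each, the smallest that an exact permutation test on 4 pairs allows. With other gene lengths, 2 members changed rank in untreated and 2 in treated cells, and the Pdgfra share became 73.9% and 39.8%. The low counts of Pdgfb gave the widest interval. Of 344 recomputed values 323 stayed the same and 12 moved, and 9, the ratios paired by number, were no longer significant. Only log2 fold changes and ratios of members have a direction that could reverse, and none of these did.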
